A study of Mus musculus with 4 samples.

Results

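The motile cilium genes were taken here as the mouse genes whose symbols begin with Dnah, Dnai or Dnaic, Rsph, Tekt, Cfap or Spag followed by the number or letters of the family, and 72 of the 19465 genes measured met this rule. They were followed in spatial transcriptomes of 4 tissue sections, 1 primary tumour and 1 lung from each of 2 BALB/c mice, named Mouse_627 and Mouse_628 in the labels. Each mouse was 8 weeks old when 100000 cells of the BALB/c mammary carcinoma line 4T1, which forms lung metastases, were injected into the mammary fat pad, and tissue was taken 28 days later. No mouse without tumour was among the samples, so both lungs come from tumour-bearing animals and each tissue has n = 2 sections. Both sections of a mouse come from the same animal. In the Visium assay for fixed, paraffin-embedded tissue, probe pairs against each gene are captured on a grid of barcoded spots, and each captured molecule is counted once through its unique molecular identifier (UMI). Several cells, or parts of cells of different types, may lie on the same spot.

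A motile cilium beats because dynein arms on its outer doublet microtubules slide the doublets past each other. Outer arms (Dnah5, Dnah9, Dnah11 and the intermediate chains Dnaic1 and Dnaic2) drive the beat, inner arms shape it, and radial spokes (Rsph genes) carry signals between the arms and the central pair of microtubules (Spag6l, Spag16 and Spag17 among its parts). Tektins line the inside of the doublets, and many Cfap proteins build or tether these structures. In the lung, the cilia are carried by the multiciliated cells of the airway lining, whose programme is switched on by the transcription factor Foxj1. Other members of the families serve the sperm tail, and some Spag and Cfap genes have roles outside cilia altogether, such as Spag5, a protein of the mitotic spindle, and Spag9, a scaffold of kinase signalling.

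The spots kept had more than 200 detected genes, and there were 2490 and 2372 in the primary tumours and 1697 and 2780 in the lungs of Mouse_627 and Mouse_628. The kept spots held 13532158 and 10890154 UMIs in the tumours and 11122812 and 30240176 in the lungs, with median depths of 2931 and 1820 UMIs per tumour spot and 6555 and 9174.5 per lung spot. Levels are given as CPM (UMIs of a gene as a share of all UMIs of the section or spot class, scaled to 1e6), and since each gene has its own probes, a level is read between places, and a gap between the levels of different genes also holds the efficiency of their probes. An airway spot was a kept lung spot with at least 1 UMI of Foxj1, at least 1 of Ccdc153 (another gene of ciliated cells) and at least 3 of both together. By this rule 80 of 1697 spots (4.71%) of the lung of Mouse_627 and 111 of 2780 (3.99%) of the lung of Mouse_628 were airway spots, and 0 spots of either tumour. Foxj1 had 255 and 313 UMIs in the lungs against 9 and 63 in the tumours, and Ccdc153 had 669 and 912 UMIs in the lungs and 0 in both tumours. Fewer cells of a type and less RNA per cell cannot be told apart in spots or section sums.

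The airway spots carried the markers of an airway wall. The 8 multiciliated markers summed to 2615 and 2716 CPM in airway spots of Mouse_627 and Mouse_628 and to 423 and 152 CPM in the other lung spots, and 2 of the 8 had chosen the spots. All 6 measured secretory (club cell) markers were higher there in both lungs, summing to 9371 and 18510 CPM against 1148 and 488. The 5 smooth muscle markers were 4.31 and 8.95 times as high as elsewhere, while the 5 alveolar type 2 markers summed to 0.750 and 0.762 times the level of other spots. Most of that sum was Sftpc, and Abca3 of the same list was at 1.32 and 1.64 times. Airway spots were thus mixed places, with multiciliated, secretory and muscle genes high side by side. Their median depth was 8476 and 8756 UMIs, against 6456 and 9195 in the other lung spots.

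The members divided by where in the lung their UMIs lay. A member was sorted when it had at least 20 UMIs in each lung, was called airway-confined when its CPM was at least 4 times as high in airway spots as in other lung spots of both sections, broad when the fold was under 2 in both, and graded otherwise. Of the 72 members 46 were airway-confined, 6 graded and 7 broad, and 13 had too few UMIs. Of all 12667 genes with enough UMIs 3.76% reached the fold of 4 in both lungs and 80.9% stayed under 2 in both. The airway-confined members were 24 Cfap, 9 Dnah, 5 Rsph, 4 Spag, 2 Tekt and both intermediate chain genes, Dnaic1 and Dnaic2. The members just inside it were Cfap57 (folds of 4.90 and 27.3 in Mouse_627 and Mouse_628) and Cfap47 (5.12 and 8.76), and the member just outside was Tekt2 (3.9 and 10.6). Tekt2 stood so close to the threshold that it was airway-confined in 5 of the 9 other settings tried. These folds chose the classes and are given as a description.

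**Figure D1:**
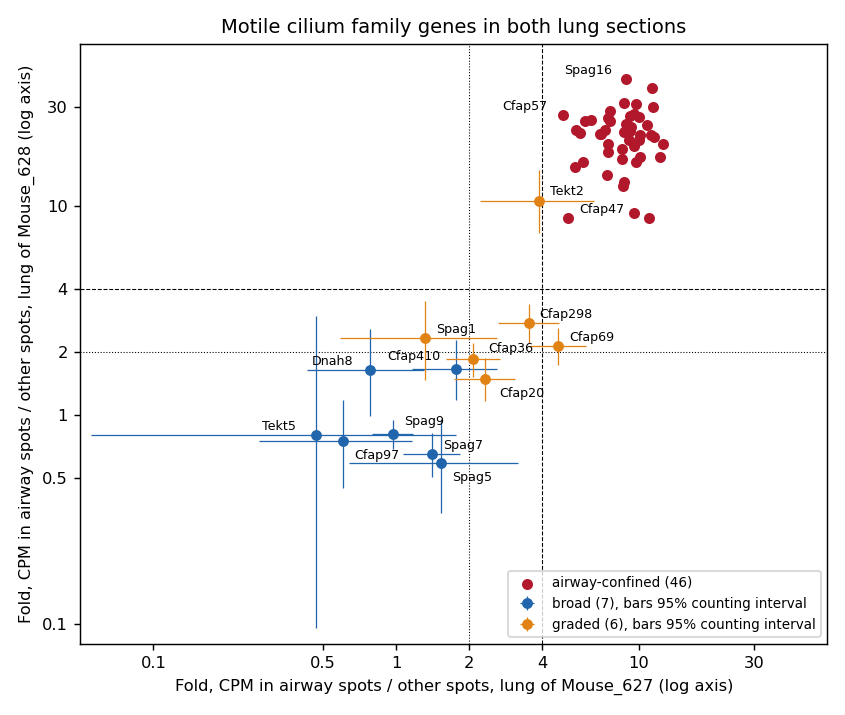
Fold of the CPM in airway spots over other lung spots for each of the 59 sorted members, the lung of Mouse_627 on the horizontal and the lung of Mouse_628 on the vertical axis, both logarithmic, with dashed lines at 4 and dotted lines at 2. Bars are 95% counting intervals of the broad and graded members, and the 46 airway-confined members form a cloud at folds of 4.90 to 12.6 in the lung of Mouse_627 and 8.76 to 40.6 in the lung of Mouse_628, apart from the 7 broad members around 1.

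Promoters are shown here for members of this shared pattern, so that the sequence near their start sites can be compared. RefSeq promoter windows of the build GRCm38.p6, from 250 bases before to 50 after a start site, were matched by symbol for 58 of the 72 members. An X-box, the paired recognition sequence of RFX factors, was searched on both strands as GTTNCC and GNAAC with 3 bases of any kind between them, and 5 of 36 matched airway-confined members held it (Cfap44, Cfap45, Cfap61, Spag16 and Tekt4) against 0.936% of 27025 genes. Of 6 broad members 0 held these letters, and of 5 graded members 1 did, Cfap298. With a looser first part, GTNNCC and GGNAAC with 2 bases between them, 3 of 36 airway-confined members, 1 of 6 broad (Spag5) and 1 of 5 graded matched, against 1.49% of all genes. The windows of Spag16, Cfap44 and Tekt4, from 3 of the families, and of the graded Cfap298 are printed 5′ to 3′ on the strand of the gene, with the matched 14 bases in capitals. They lie at chr1:69826720-69827019 (plus strand), chr16:44394549-44394848 (plus strand), chr17:25471340-25471639 (plus strand) and chr16:90934800-90935099 (minus strand).
Spag16: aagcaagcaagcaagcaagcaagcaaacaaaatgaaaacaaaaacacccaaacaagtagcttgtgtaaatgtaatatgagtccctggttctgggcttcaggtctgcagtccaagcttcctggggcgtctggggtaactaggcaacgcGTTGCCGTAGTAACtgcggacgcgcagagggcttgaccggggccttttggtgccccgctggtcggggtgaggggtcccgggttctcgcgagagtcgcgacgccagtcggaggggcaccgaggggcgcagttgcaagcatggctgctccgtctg
Cfap44: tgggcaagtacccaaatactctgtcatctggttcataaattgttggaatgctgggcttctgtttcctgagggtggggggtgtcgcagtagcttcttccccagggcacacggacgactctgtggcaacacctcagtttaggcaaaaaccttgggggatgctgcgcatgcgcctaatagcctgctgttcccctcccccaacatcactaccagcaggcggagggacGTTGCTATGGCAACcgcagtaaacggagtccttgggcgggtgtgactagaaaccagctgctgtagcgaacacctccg
Tekt4: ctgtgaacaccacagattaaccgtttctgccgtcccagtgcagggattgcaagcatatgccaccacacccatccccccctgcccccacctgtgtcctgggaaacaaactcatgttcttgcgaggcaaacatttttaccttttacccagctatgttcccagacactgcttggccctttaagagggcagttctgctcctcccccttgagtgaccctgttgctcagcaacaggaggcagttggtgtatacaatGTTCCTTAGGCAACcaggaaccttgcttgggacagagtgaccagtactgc
Cfap298: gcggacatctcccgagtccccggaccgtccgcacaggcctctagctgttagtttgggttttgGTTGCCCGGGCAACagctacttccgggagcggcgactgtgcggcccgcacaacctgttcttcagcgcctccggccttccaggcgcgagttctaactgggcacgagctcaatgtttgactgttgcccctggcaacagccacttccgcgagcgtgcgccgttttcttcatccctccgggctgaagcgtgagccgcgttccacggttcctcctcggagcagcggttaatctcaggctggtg
Where the gene's strand does not spell the X-box, as in Cfap44, the match is on the other strand. The matches begin 103 bases before the start site in Spag16, 27 before it in Cfap44, at it in Tekt4 and 188 before it in Cfap298. The shorter RFX core GTTGCC was in 14 of 36 airway-confined windows, 0 of 6 broad and 3 of 5 graded ones, and in 14.1% of all genes. A stricter X-box, GTTNCC and GGNAAC with 2 bases between them, was in 0 of 36 airway-confined windows and in 0.529% of all genes, and of 3 forkhead spellings TGTTTAC was in 1, TGTTTGT in 2 and TGTTTGC in 5 of the 36, against 4.05%, 7.60% and 5.76% of all genes. Of the 6 broad windows 1 held a forkhead spelling, TGTTTGC in Cfap410. In all 9 spellings were counted, chosen with the members' levels known. A match describes letters in a window and does not show a bound site.

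Among the airway-confined members, the 12 with the largest mean log2 fold over both lungs are described first, and in a single lung other members had larger folds than some of them. Spag16, a part of the central pair (chr1:69826970-70725132 in GRCm38), had 60.4 CPM in airway spots and 6.81 in the other spots of the lung of Mouse_627, and 63.9 and 1.57 in the lung of Mouse_628. Its folds of 8.86 (95% counting interval 5.90 to 13.2) and 40.6 (27.4 to 60.7) gave it the highest value of the lung of Mouse_628. Cfap73, which belongs to the tether of an inner arm, had 27.3 against 2.40 CPM in Mouse_627 and 29.0 against 0.787 in Mouse_628. Rsph4a, a protein of the radial spoke head (chr10:33905111-33916021), had 56.0 against 4.89 CPM and 68.9 against 2.29 CPM. In each of these genes the airway level was nearly the same in both mice, and the larger fold of Mouse_628 went with a lower level outside the airways.

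Of the 13 dynein heavy chains 9 were airway-confined, Dnah8 was broad and 3 had too few UMIs. Dnah5, the outer arm chain (chr15:28203752-28472052), had 181 and 187 CPM in airway spots of Mouse_627 and Mouse_628 and 18.5 and 6.02 CPM elsewhere in the lung. Dnah9, its partner in the outer arm, had 181 and 141 CPM in airway spots and 19.6 and 5.20 elsewhere. Dnah12, an inner arm chain (chr14:26693274-26891703), had 240.0 and 184 CPM in airway spots, and 20.7 and 8.52 CPM elsewhere. Dnah3, also of the inner arms, had 121 and 89.9 CPM against 10.7 and 4.07. The outer arm intermediate chain Dnaic2 had 56.0 and 64.9 CPM against 5.18 and 2.63. These 5 are named for their large folds, of 9.26 to 31.0. Of the other arm genes in the class, the intermediate chain Dnaic1 had folds of 5.99 and 25.6, the inner arm chain Dnah2 of 7.49 and 18.3 and the outer arm chain Dnah11 of 9.54 and 9.26.

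Tekt1, a tektin of the doublet wall, had 89.1 and 113 CPM in airway spots of Mouse_627 and Mouse_628 and 10.3 and 3.63 CPM elsewhere. Cfap206, which joins a radial spoke to its doublet (chr4:34688559-34730206), had 112 and 120 CPM in airway spots and 11.7 and 4.34 elsewhere. Cfap74, of the central pair, had 69.0 and 42.0 CPM against 5.47 and 2.12, and Cfap157 had 43.1 and 45.95 against 4.32 and 1.71. Over the 46 genes the CPM of a gene in airway spots ranged from 14.4 to 240.0 in the lung of Mouse_627, with a median of 56.0, and from 5.99 to 199 in the lung of Mouse_628, with a median of 59.9. The level of a gene in airway spots went along between the mice, with a Pearson r of 0.908 and a Spearman rho of 0.930 on log2 CPM across the 46 genes, which are not independent replicates and whose probes are the same in both sections. In the lung of Mouse_628, 26 of the 46 were higher than in the lung of Mouse_627.

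Summed over the 46 genes, airway spots held 3573 CPM in Mouse_627 and 3511 CPM in Mouse_628. The other lung spots held 414 and 163 CPM. The typical airway spot carried 28 UMIs of these genes in the lung of Mouse_627 and 29 in the lung of Mouse_628, the highest carried 93 and 117, and 77 of 80 and 100 of 111 airway spots had at least 10. Of the other lung spots 90 of 1617 and 106 of 2669 had at least 10, and the median was 1 UMI in both sections. The median fold of the 46 genes was 8.79 in the lung of Mouse_627 and 22.2 in the lung of Mouse_628, and 44 of the 46 had the larger fold in the lung of Mouse_628. The 4 tumour markers, Csf3, Mmp3, Plau and Hmga2, summed to 87.3 CPM in the other spots of the lung of Mouse_627 and to 1062 CPM in those of the lung of Mouse_628, and their part in the difference between the lungs was not tested.

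Airway spots did not hold all of the signal. They carried 36.6% of the 6798 airway-confined UMIs of the lung of Mouse_627 (95% Clopper-Pearson interval 35.4% to 37.7%) and 42.4% of the 8289 of the lung of Mouse_628 (41.3% to 43.5%), and the intervals cover counting error only. The same spots carried 6.26% and 3.31% of all UMIs. With their direct neighbours on the grid they carried 68.3% and 69.5%, in 15.7% and 12.6% of the spots. The broad members had 6.72% and 2.73% of their lung UMIs in airway spots. Both sets were sorted by the fold between these spot classes, so the shares describe the sorting.

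The level was lower at each step away from the airway spots. In the lung of Mouse_627 the 46 genes summed to 3573 CPM in airway spots, 1569 CPM at 1 step, 491 at 2 steps, 259 at 3 steps and 174 at 4 or more steps. In the lung of Mouse_628 the values were 3511, 1296, 435, 207 and 52.2 CPM. The broad members were level, going from 349 to 319 CPM in the lung of Mouse_627 and from 333 to 416 in the lung of Mouse_628. The 6 secretory markers went from 9371 to 430 CPM along the same steps in the lung of Mouse_627 and from 18510 to 99.5 in the lung of Mouse_628. Airway-confined and secretory genes thus had the same order over distance in both lungs.

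**Figure D2:**
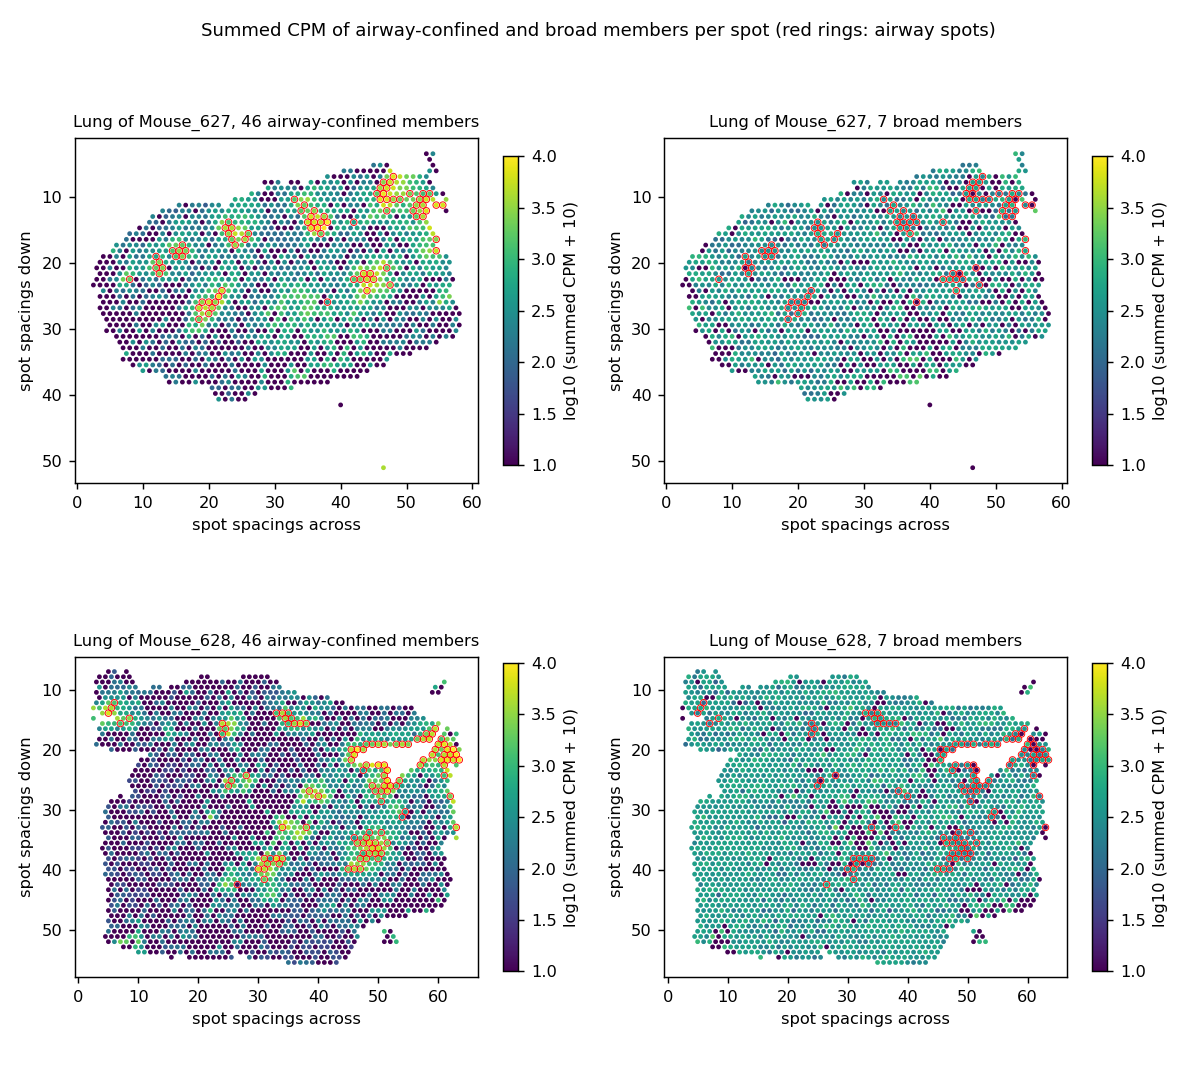
Each dot is a kept spot of the lung of Mouse_627 (top) or the lung of Mouse_628 (bottom), placed by its row and column on the grid and coloured by log10 of the summed CPM plus 10 of the 46 airway-confined (left) or 7 broad members (right), with red rings on airway spots. The airway-confined signal sits in patches on and around the 80 and 111 airway spots, while the broad signal covers the sections.

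**Figure D3:**
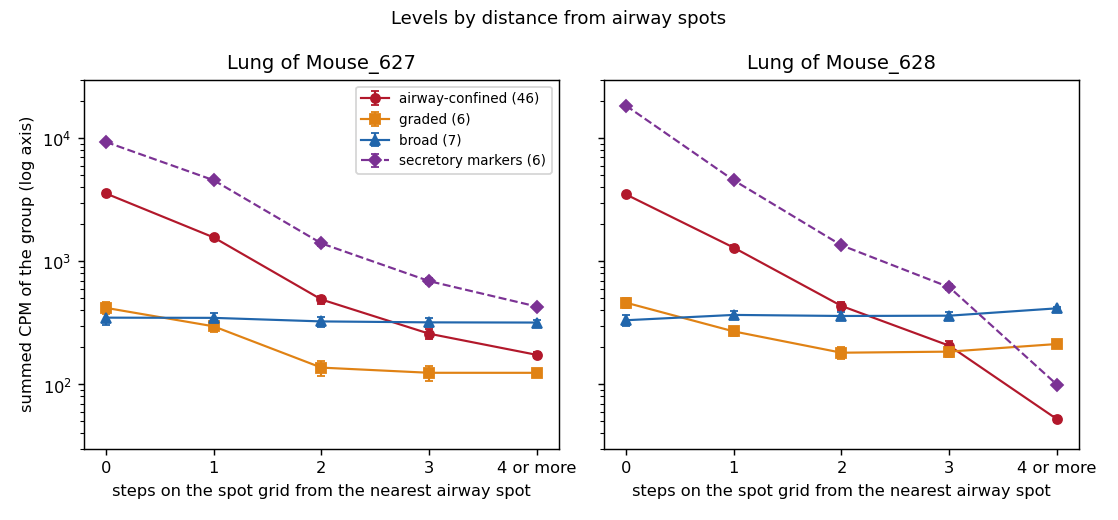
Summed CPM on a logarithmic axis by steps on the spot grid from the nearest airway spot, for the airway-confined, graded and broad members and the 6 secretory markers, with 95% counting intervals that are mostly smaller than the symbols. The airway-confined members went from 3573 to 174 CPM in the lung of Mouse_627 and from 3511 to 52.2 in the lung of Mouse_628, and the broad members stayed between 319 and 416 CPM in both.

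The sums of airway spots and of other lung spots were compared across all genes with edgeR's quasi-likelihood test (n = 2 sections per class). Without the mouse in the model 0 of 13122 genes passed an adjusted p-value of 0.05 and 1242 (9.47%) had an unadjusted p-value under 0.05, of which 1193 (9.09% of genes) were higher in airway spots. Of the 61 members tested, 53 had an unadjusted p-value under 0.05, all higher in airway spots, and the lowest adjusted p-value of a member was 0.0620 by edgeR. Both classes come from the same sections, and once edgeR fitted the mouse as a block 51 of 61 members were called higher and 0 lower, beside 8.57% of all genes called higher. DESeq2 without the block called 48 of 71 members higher, beside 3.26% of all genes. For the members that the folds had already sorted as airway-confined, graded or broad these calls add no evidence. The members tested are those that passed the filter on low counts.

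Within the blocked edgeR model the log2 difference of airway from other spots was 3.87 for Dnah12 (standard error 0.33, adjusted p = 4.8e-15) and 4.01 for Dnah5 (standard error 0.36, adjusted p = 1.2e-14). Without the block, Dnah12 differed by 3.69 (standard error 0.58, edgeR adjusted p = 0.0641) and Dnah5 by 3.73 (standard error 0.65, edgeR adjusted p = 0.0664). The sizes differed by less than 1 standard error, and the calls depended on the block and also on the tool, the filter and the rule for airway spots. The median log2 fold change of the 46 was 3.66 with the block and 3.45 without, against -0.085 and -0.11 over all genes tested.

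The 6 graded members sat between. The same folds sorted them, so the tests between spot classes given for them here and below add no evidence and the differences are a description. Tekt2, the tektin next to the threshold, had 27.3 and 47.0 CPM in airway spots of Mouse_627 and Mouse_628 and 7.001 and 4.41 elsewhere. In the blocked edgeR model it was higher in airway spots by 2.65 (standard error 0.48, adjusted p = 1.4e-05). Cfap298, an assembly factor of dynein arms, had 87.7 and 95.9 CPM in airway spots but also 24.8 and 35.0 elsewhere, and it was higher by 1.52 (standard error 0.31, edgeR adjusted p = 0.00017 with the block). Cfap69 had 108 and 102 CPM against 23.1 and 47.7 and was likewise higher by 1.52 (standard error 0.31, edgeR adjusted p = 0.00015 with the block). These 3 did not pass without the block, with edgeR adjusted p-values of 0.0842 to 0.135. Outside the airway spots the levels of Cfap298 and Cfap69 lay above those of Tekt2 in both lungs.

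Cfap36, a partner of a small GTPase of cilia, had 102 and 118 CPM in airway spots and 48.9 and 63.9 elsewhere, a log2 difference of 0.86 (standard error 0.30, edgeR adjusted p = 0.0591 with the block). Cfap20, a protein of the doublet junction, had 81.9 and 75.9 against 35.2 and 51.1 CPM (edgeR adjusted p = 0.140 with the block). Spag1, another dynein arm assembly factor, had 12.9 and 24.0 against 9.78 and 10.3 CPM (edgeR adjusted p = 0.511 with the block). The graded members summed to 420 and 463 CPM in airway spots and 149 and 212 CPM elsewhere. In the tumours they summed to 260.0 and 245 CPM.

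The 7 broad members had folds of 0.468 to 1.77 between airway and other lung spots, since the rule set no lower limit. Spag9 had 168 and 164 CPM in airway spots of Mouse_627 and Mouse_628, 173 and 203 elsewhere in the lung, and 206 and 187 in the tumours. Spag7 had 90.5 and 70.9 CPM in airway spots, 64.2 and 109 elsewhere, and 112 and 131 in the tumours. Cfap410, which works with the kinase Nek1, had 41.7 and 39.96 against 23.6 and 24.0 CPM in the lung and 25.1 and 30.3 in the tumours. Cfap97 had 12.9 and 19.0 against 21.4 and 25.4 CPM in the lung and 20.5 and 23.0 in the tumours. The class was chosen on this contrast, so a test between the spot classes adds no evidence for it. Fitted differences of some of its members are given below only for their dependence on the processing.

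The other broad members were less even between sections. Spag5, the spindle protein, had 7.48 CPM in the other spots of the lung of Mouse_627 and 29.0 in those of the lung of Mouse_628, and 24.1 and 25.6 CPM in the tumours. The 7 measured proliferation markers summed to 313 and 1291 CPM in the same lung classes and to 802 and 672 CPM in the tumours, so both were lowest in the lung of Mouse_627 and highest in the lung of Mouse_628. Dnah8, a heavy chain best known from the sperm tail, was the only broad member among the dynein chains. It had 21.6 and 19.98 CPM in airway spots and 27.6 and 12.2 elsewhere in the lung, and its folds of 0.780 (95% counting interval 0.431 to 1.31) and 1.64 (0.990 to 2.57) lay far from those of Dnah5. In the tumours Dnah8 had 1.77 and 19.2 CPM. Tekt5, a tektin of the sperm tail, had only 66 and 75 UMIs in the lungs, 2 of them in airway spots of each section, with 0.222 and 5.60 CPM in the tumours.

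Members with too few UMIs included relatives of airway-confined genes, named here after their values were seen. Dnah17 had 3 and 10 UMIs in the lungs of Mouse_627 and Mouse_628, Rsph6a had 2 and 5, and Spag6 had 2 and 1. In airway spots Dnah17 and Rsph6a had 0 UMIs in both lungs. Members with a near-identical copy (Spag6 and Spag6l, Rsph3a, Dnah7c, Spag11a and Spag11b) are uncertain, since a probe may not tell the copies apart. Spag4 had 10.7 and 15.4 CPM in the tumours of Mouse_627 and Mouse_628 against 0.719 and 3.08 in the lungs, and the edgeR test between the tissues did not call it (adjusted p = 0.138). DESeq2 called it lower in the lung (adjusted p = 0.0333), and against the 95th percentile of olfactory and vomeronasal receptor genes, the measure of background in the tumours, it lay above in Mouse_627 (1.70 CPM) and below in Mouse_628 (19.0 CPM).

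Other genes of the ciliary programme, from lists chosen with earlier results of these data known, were sorted in the same way. Of 65 measured genes for transcription factors and multiciliogenesis, dynein assembly, docking, the nexin-dynein complex, dynein light and intermediate chains, the central pair and ciliated cells in general, 43 were airway-confined, 13 graded and 1 broad, and 8 had too few UMIs. With the block edgeR called 53 of the 59 tested higher in airway spots and 0 lower, beside 8.57% of all genes called higher. The same contrast had sorted these genes, so the calls add no evidence for their classes. The 8 named here were taken for their CPM in airway spots, which also depends on the probes of each gene. Tppp3, a microtubule-binding protein, had 1201 and 1115 CPM in airway spots against 293 and 82.5 elsewhere, and Fam183b had 374 and 386 against 43.3 and 15.3. Tmem212, Dynlrb2 (a dynein light chain), Drc3 (of the nexin-dynein complex), Nme5 (of the radial spoke), Sntn (of the ciliary tip) and Dnali1 (of inner arms) had 112 to 321 CPM in airway spots. The 14 graded or broad genes came from all 7 lists, with 4 regulators, 3 central pair genes, 2 assembly factors, 2 dynein light chains and 1 each of docking, nexin-dynein and ciliated cell genes. Among them the RFX factors Rfx2 and Rfx3 had folds of 1.44 to 2.51, the assembly factors Dnaaf2 and Dnaaf5 of 1.25 to 2.83 and the light chain gene Dnal1 of 2.08 and 3.42.

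Genes that motile cilia share with the primary cilium of other cells were sorted next. Of 27 measured genes of intraflagellar transport and the basal body complexes, 0 were airway-confined, 20 were graded and 7 broad. With the block edgeR called 14 of the 27 higher in airway spots, beside 8.57% of all genes, with a median log2 fold change of 1.11 over all 27 against -0.085 over all genes tested. Without the block edgeR called 0, with 15 at an unadjusted p-value under 0.05 beside 9.47% of all genes, and 2 were called by DESeq2 beside 3.26%. Here too the contrast of the spot classes had sorted the genes, so these calls add no evidence for their classes. Between lung and tumour 0 of the 27 were called by edgeR, with or without the block, or by DESeq2 (3 at an unadjusted p-value under 0.05 by edgeR, beside 23.2% of all genes).

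The primary tumour served as the tissue that should lack motile cilia, and its level had to be read against background. As a measure of background, the 1178 olfactory and vomeronasal receptor genes, which these tissues should not express, were taken, and the 95th percentile of their CPM was 1.70 and 19.0 in the tumours and 0.539 and 0.397 in the lungs of Mouse_627 and Mouse_628. The minimum of 20 UMIs in each lung placed every sorted member above this level in the lungs, so the level was read in the tumours only. In the tumour of Mouse_627, 7 of 46 did (Cfap126, Cfap43, Cfap54, Cfap61, Cfap74, Cfap77 and Rsph10b), and in the tumour of Mouse_628 2 of 46 (Cfap54 and Cfap61, named after their values were seen). The median gene of the 46 had 0.739 and 6.61 CPM in the tumours, and the median receptor gene had 0.591 and 6.61 CPM. Of the broad members 6 of 7 lay above the level in each tumour. Above the 99th percentile of the receptor genes lay 5 of 7 in the tumour of Mouse_627 and 2 of 7 in that of Mouse_628.

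**Figure D4:**
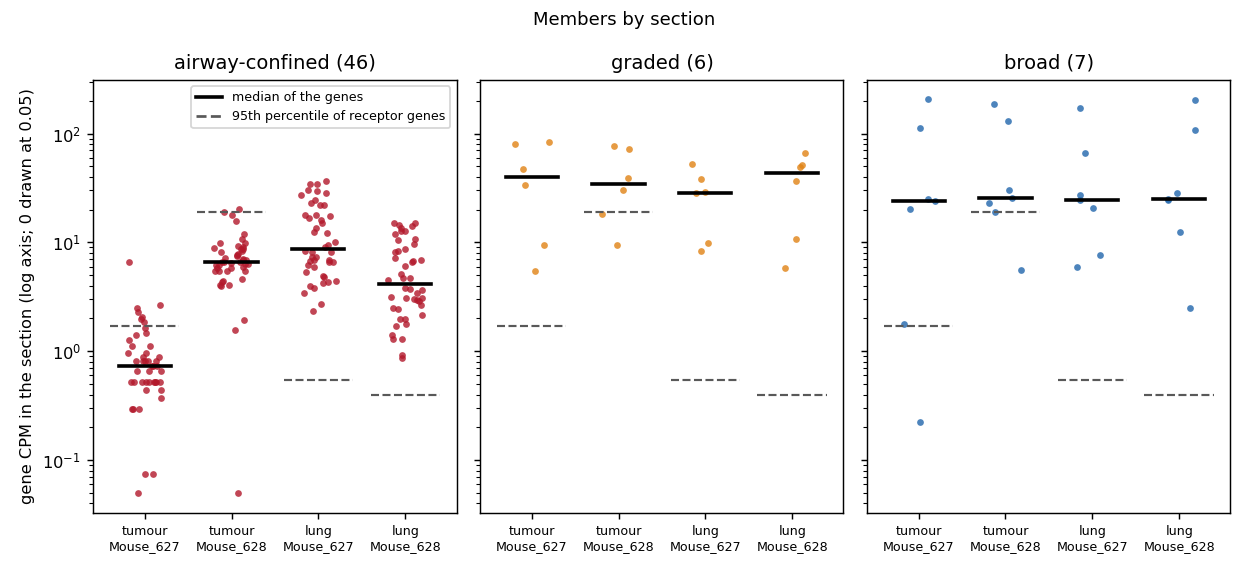
CPM of each airway-confined, graded and broad member in the 4 sections on a logarithmic axis, with the median of the genes as a bar and the 95th percentile of the receptor genes of the section as a dashed line. The airway-confined members lie around the receptor genes in both tumours, at medians of 0.739 and 6.61 CPM, while their place above them in the lungs follows from the minimum of 20 UMIs in each lung.

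Summed over the 46 genes, the level was 46.9 CPM in the tumour of Mouse_627 and 348 CPM in the tumour of Mouse_628, and 611 and 274 CPM in the lungs. As a ratio, though not as a difference in CPM, the tumours differed from each other more than the lungs did. The level of the tumour of Mouse_628 lay above that of the lung of the same mouse. The highest tumour spot had 3 UMIs of the 46 genes in Mouse_627 and 6 in Mouse_628, against 93 and 117 in the lungs. On the CPM scale of single spots, where a shallow spot reaches a high value with few UMIs, the highest tumour spots had 5510 and 6356 CPM and the highest lung spots 9849 and 12512. Whether tumour spots with these UMIs lie together was not tested. The broad members summed to 390 and 422 CPM in the tumours and 325 and 403 CPM in the lungs.

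The spots of each section were split by depth into 4 classes of nearly equal number. From the shallowest to the deepest class of the tumour of Mouse_628, all UMIs went from 1188 to 13268 per spot, while the airway-confined UMIs were 1.61, 1.72, 1.59 and 1.47 per spot. The broad members went from 0.553 to 5.42 UMIs per spot over the same classes. The receptor genes went from 40.6 to 37.8 UMIs per spot. In the tumour of Mouse_627 the airway-confined UMIs were more numerous in each deeper class, from 0.101 to 0.382 per spot. The broad ones went from 0.183 to 5.65 there, while all UMIs went from 379 to 14538. The receptor genes of that tumour had 2.23, 5.86, 5.95 and 4.83 UMIs per spot from the shallowest to the deepest class. As CPM its airway-confined members went from 267 to 26.3 over these classes. In the lung of Mouse_627 the airway-confined UMIs were more numerous in deeper spots, from 1.57 to 6.70 per spot. In the lung of Mouse_628 they were 2.74, 3.73, 3.49 and 1.97 per spot from the shallowest to the deepest class.

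**Figure D5:**
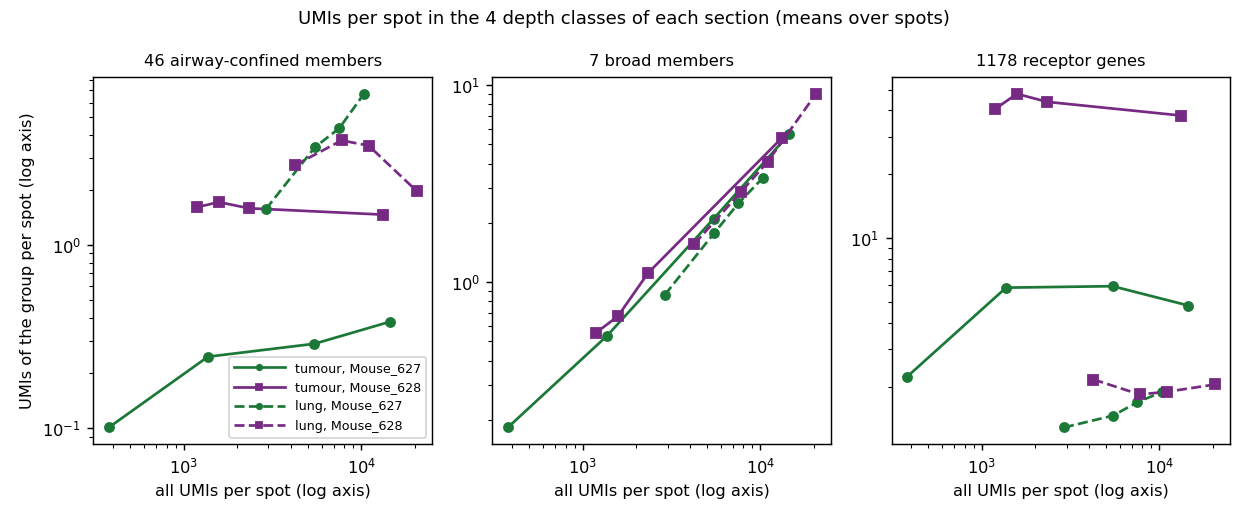
UMIs per spot of the 46 airway-confined members, the 7 broad members and the 1178 receptor genes against all UMIs per spot, both axes logarithmic, with 1 point for each depth class of a section (means over spots). The broad members are higher in deeper spots of all 4 sections, and in the tumour of Mouse_628 the airway-confined members stay between 1.47 and 1.72 UMIs per spot.

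Lung and primary tumour were compared over section sums (edgeR, n = 2 sections per tissue), and 3 of the 65 members tested were called, all higher in the lung, beside 6.31% of 15267 genes called higher. Cfap206 had 0 UMIs in both tumours and 200 and 247 UMIs in the lungs. Against the floor of 3 UMIs per tumour section it was at least 81.1-fold higher in the lung of Mouse_627 and at least 29.7-fold higher in that of Mouse_628 (edgeR adjusted p = 0.00754). Its 0 UMIs stand apart from the section of Mouse_628, where it was the only 1 of the 46 with none, and its 8.17 CPM in the lung lie below the 95th percentile of receptor genes in that tumour. Dnah12 had 34.4 and 14.3 CPM in the lungs and 0.665 and 4.04 in the tumours, a log2 difference of 3.77 (standard error 0.85, edgeR adjusted p = 0.0295). Rsph1, of the radial spoke head (chr17:31255019-31277383), had 30.1 and 12.6 CPM in the lungs and 0.887 and 4.41 in the tumours, a log2 difference of 3.41 (standard error 0.83, edgeR adjusted p = 0.0399). In all 3 both lungs lay above both tumours, as for 17.2% of all genes.

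With the mouse as a block edgeR called 9 members higher and 0 lower, beside 9.17% of genes called higher, and DESeq2 without it called 13 higher and 5 lower of 72, beside 8.84% and 11% of genes. The edgeR count of members called higher rose without either section of Mouse_628 and fell without the lung of Mouse_627. These fits leave 1 section in a tissue, so their counts are not given. A further fit used only the deepest class of tumour spots, a choice made after seeing the data. In it 0 members passed, and by edgeR 25 had an unadjusted p-value under 0.05. All 46 airway-confined members were higher in the lung there, with a median log2 fold change of 2.51. The shares of all genes in this fit are not given here, so these counts are not read as a result about the members. The 46 had been taken among genes with at least 20 UMIs in each lung, which favours a higher level in the lung. With airway spots and their direct neighbours left out of the lungs, 0 members were called and 22 of the 46 were higher in the lung. The broad and graded members gave 0 calls by edgeR and DESeq2, with edgeR adjusted p-values of 0.424 and more and 0 unadjusted p-values under 0.05 without the block. With it 1 of them, Dnah8, had an unadjusted p-value under 0.05 (edgeR adjusted p = 0.154).

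The mice differed in this comparison. Of all 72 members 54 had a higher CPM in the lung than in the tumour in Mouse_627, beside 35.4% of all genes, and 21 in Mouse_628, beside 32.7%. The 46 airway-confined members had been taken among genes with at least 20 UMIs in each lung, and of all genes with as many 45.1% were higher in the lung in Mouse_627 and 48.8% in Mouse_628. In Mouse_627 46 of the 46 were higher in the lung, with a median log2 difference of 3.71 with Cfap206 taken at its floor, and in Mouse_628 16 of 46, with a median of -0.58. For 16 of the 46 both lungs lay above both tumours, beside 25.6% of genes with as many lung UMIs. Dnah5, 1 of the 16, had 28.7 and 12.004 CPM in the lungs and 0.813 and 9.18 in the tumours of Mouse_627 and Mouse_628. Rsph4a, higher in the tumour of Mouse_628, had 8.09 and 4.50 in the lungs and 0.887 and 9.09 in the tumours, so the groups overlapped. The receptor genes were also far higher in the tumour of Mouse_628, as given above, and their part in this difference was not tested.

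Of the other motile cilium genes 5 of 60 tested were called between the tissues by edgeR, all higher in the lung, beside 6.31% of all genes, namely Tppp3, Drc7, Iqcg, Myb and Pifo. Tppp3 had 350 and 117 CPM in the lungs and 13.5 and 9.3 in the tumours. With the block 11 were called higher, beside 9.17% of all genes.

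Metastatic growth in the lung was approached through the fifth of lung spots with the highest summed CPM of the 4 tumour markers, 340 spots in the lung of Mouse_627 and 556 in the lung of Mouse_628, against the other lung spots. The airway-confined members summed to 571 CPM in marker-rich and 621 CPM in other spots of the lung of Mouse_627, and to 45.5 and 382 CPM in the lung of Mouse_628. The marker lists of other lung cells were also lower in marker-rich spots of Mouse_628, with 142 against 1528 CPM for secretory, 2400 against 8889 for alveolar type 2, 339 against 1247 for alveolar type 1, 114 against 248 for smooth muscle and 5345 against 41344 for neutrophil markers, and their part in the result was not tested. In Mouse_627 these lists were closer, with 1607 against 1676 CPM for secretory and 10762 against 11905 for alveolar type 2. Alveolar type 1 had 1730 against 1999, neutrophil 58145 against 78969 and smooth muscle 417 against 387. The 4 tumour markers summed to 375 and 2029 CPM in marker-rich spots of Mouse_627 and Mouse_628, and to 3817 and 4661 in the tumours. Marker-rich spots of the lung of Mouse_627 thus say little about metastatic growth. In the lung of Mouse_627, 15 of the 46 were higher in marker-rich spots and in the lung of Mouse_628 0 of 46. Dnah5 had 27.4 against 29.0 CPM in Mouse_627 and 1.24 against 17.1 in Mouse_628, and Rsph1 had 29.2 against 30.3 and 1.55 against 17.9. The broad members summed to 327 and 325 CPM in Mouse_627 and 450 and 381 in Mouse_628. Spag5 had 16.4 against 5.597 CPM in Mouse_627 and 40.8 against 22.9 in Mouse_628 and was not called (edgeR adjusted p = 0.925, or 0.267 with the block). The 7 proliferation markers summed to 623 against 242 and 1846 against 999 CPM in the same spots, and their part in the result was not tested.

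By edgeR 0 of 13385 genes were called in this comparison, 21 (0.157%) had an unadjusted p-value under 0.05, and 1 of the 61 members tested was among them, Cfap221 (named after its value was seen), with a log2 difference of -2.71 (standard error 0.99) and an edgeR adjusted p of 0.925. With the mouse as a block and by DESeq2 0 genes were called as well, with 2360 genes and 3 of the 61 members at an unadjusted p-value under 0.05 in the blocked edgeR model. The marker-rich classes were unlike in the lungs. The cut lay at 145 CPM in the lung of Mouse_627 and at 1438 CPM in the lung of Mouse_628, and 23 of 80 airway spots of the lung of Mouse_627 were marker-rich against 1 of 111 of the lung of Mouse_628.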

How the data were processed

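The authors deposited raw UMI counts of 19465 genes per spot under tissue, written by Space Ranger 2.0.0 on the genome build mm10, with spot positions and without normalization. Here UMIs were summed over kept spots of each class and section, and CPM were computed from these sums. Summed counts were tested in R 4.3.3 with edgeR 4.0.16 (TMM, filterByExpr, quasi-likelihood test, Benjamini-Hochberg adjustment over all genes tested, threshold 0.05). DESeq2 1.42.0 was an alternative. Spots are not replicates, so n = 2 sections per class. Sums of a mouse come from 1 animal, which pairs them. Same-mouse sums deviated from the class means with correlations of -0.29 for lung against tumour, 0.40 for airway and 0.80 for marker-rich spots. Gene coordinates are those of GENCODE on GRCm38, and promoter windows and sequences are those of RefSeq.

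The members, lists and tests were chosen with earlier results of these data known. The genes named by rule are the 12 airway-confined members with the largest folds, all broad and graded members, members called between tissues, and the 8 other motile cilium genes with the highest airway CPM. Cfap221 is named for its unadjusted p-value in marker-rich spots, where 0 members were called. Other genes are named outside this rule, such as those near a threshold, with few UMIs, above background or holding a motif. Tumour-marker-rich spots were to be those at or above the median marker CPM of the tumour of the same mouse, but 0 spots of the lung of Mouse_627 and 53 of the lung of Mouse_628 met this, so the alternative set beforehand, the fifth of spots with the highest marker CPM in each lung, was used. The fits were tested on simulated counts whose spread was set by hand and need not match that of these sections. Scgb1a1 is not in the table. Outlines of foci on the histology were not used here.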

Additional observations from a re-analysis of the deposited data

Results flagged for a closer look

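The spots left out of the comparisons also held UMIs of the members. The 106 spots of the tumour of Mouse_627 with 200 or fewer genes held 23 UMIs of the 72 members among 19468 UMIs. The same spots held 63 UMIs of the 1178 receptor genes taken as background, and whether the members exceed background there was not tested. No other section lost spots to the filter.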

How the results depend on the processing

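Between lung and tumour, 3 members were called higher, and the count was 5 with DESeq2 size factors, 13 by DESeq2 (with 5 lower), 12 without a filter, 9 with the replicate block, 1 with spots of more than 1000 genes, and 0 with the deepest of 4 depth classes of tumour spots or without airway spots and their neighbours. It was 0 to 21 with 1 section left out (0 to 9 lower). Same-mouse deviations ran opposite in that comparison, and the crossed pairing, added after seeing the data, called 19 higher and 1 lower. In airway spots 0 members were called, against 48 by DESeq2, 49 without a filter, 51 with the replicate block, 29 with airway spots by secretory genes, 36 with at least 6 UMIs of Foxj1 and Ccdc153, 35 without direct neighbours and 32 to 50 with 1 sum left out. Shares of all genes called are given above only for the main fits, the replicate block and DESeq2. The counts of members called in the other settings have no such share beside them and are not read as a result about the members. The replicate block changed no call in marker-rich spots, where every setting run called 0 members. The median log2 fold change of all genes between tissues was -0.06 with DESeq2 size factors, -0.11 without a filter and -0.16 by DESeq2.

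A fold of 8 left 29 airway-confined and 23 graded members. A minimum of 50 UMIs left 22 with too few. Airway spots by at least 2 UMIs left 2 graded, and either lung alone 3 to 4. In the tumour of Mouse_627 1 airway-confined member passed the 99th percentile of receptor genes, and in the tumour of Mouse_628 4 passed the 90th and 0 the 99th. The airway difference, negative and not called for these broad members, turned positive for Dnah8 with the replicate block (0.077), at least 2 UMIs (0.096), at least 6 UMIs (0.029) and with 1 sum left out (-0.67 to 0.83, the highest without other lung spots of Mouse_627), for Spag5 with at least 6 UMIs (0.035) and with 1 sum left out (-0.93 to 0.71, the highest without other lung spots of Mouse_628), for Spag7 with 1 sum left out (-0.40 to 0.069, the highest without the same spots) and for Tekt5 with airway spots by secretory genes (0.25). The causes were not tested. Fits with 1 sum left out assume that the lone sum varies like the other class, and leaving out a mouse leaves no degrees of freedom and was not run. The 13 members with too few UMIs had median levels of 0.180 and 0.298 CPM in the lungs. Without the lung of Mouse_627 10 had too few, since Cfap300, Cfap99 and Spag4 had enough in the lung of Mouse_628. The levels of these 10 in the lungs, and of all 13 in the lung of Mouse_627, are not resolved at this depth.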

Other observations

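Of 7 listed regulators of the multiciliated programme 1 was airway-confined, 3 were graded and 1 broad, and 2 had too few UMIs. Trp73, a transcription factor upstream of Foxj1, was airway-confined, with 47.4 and 54.9 CPM in airway spots of Mouse_627 and Mouse_628 and 4.70 and 2.12 CPM elsewhere in the lung. Its edgeR adjusted p-value was 0.0647 without the mouse in the model and 2.2e-10 with it. The fold between the same spot classes had already sorted Trp73, so these p-values add no evidence for its class. Myb, which acts in differentiating multiciliated cells and also in blood progenitors, had 105 and 117 CPM in airway spots and 40.3 and 10.5 elsewhere, so its fold was 2.60 in Mouse_627 and 11.2 in Mouse_628. Ccno, which acts in the making of basal bodies, had 2.87 CPM in airway spots and 5.85 elsewhere in Mouse_627, from 2 UMIs in airway spots, and 17.0 and 1.23 in Mouse_628. Gmnc, an early switch of the programme, had 7 and 27 UMIs in the lungs, 4 and 14 of them in airway spots, and 0 in both tumours. Mcidas, its relative, had 5 and 9 UMIs in the lungs but 1 and 78 in the tumours, and 78 UMIs (7.16 CPM) lie below the 95th percentile of the receptor genes of that tumour.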
